A study of Mus musculus with 18 samples.

Results

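The genes described here are Nos2 and 8 genes of arginine supply and use, which were Arg1, Arg2, Ass1, Asl, Slc7a2, Slc7a1, Gch1 and Odc1. They were chosen by gene symbol, and all 9 were found among the 21441 gene rows of a macrophage table and of a liver table. RNA sequencing had been done on RAW264.7 cells, a mouse macrophage cell line that is a single established line, and on livers of male wild type C57BL/6 mice. The cells were solvent controls, LPS-treated cells or cells given LPS+MIC-1 at 10 µM, with 3 libraries in each group. The mice were saline-injected vehicle controls, mice injected intraperitoneally with LPS at 10 mg/kg, or mice given MIC-1 at 80 mg/kg by gavage in 10% DMSO for 3 days before the same LPS dose, again with 3 libraries in each group and with livers taken at 16 h. LPS is the lipopolysaccharide of the bacterial outer membrane, and MIC-1 is moringa isothiocyanate-1, an electrophilic compound from moringa seeds. The study asked how MIC-1 changes the transcriptional response to LPS. The sample labels call the cells macrophages of the C57BL/6 strain and repeat for them the doses given to the mice, while the study's text names them as RAW264.7. The LPS concentration and exposure time of the cells are therefore not given here.

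Inducible nitric oxide synthase, the product of Nos2, makes nitric oxide and citrulline from arginine and is a classical product of macrophages that have met LPS. Arginase competes for the same arginine and makes urea and ornithine, from which ornithine decarboxylase opens polyamine synthesis. Citrulline is turned back into arginine by argininosuccinate synthase and argininosuccinate lyase, the products of Ass1 and Asl, and both enzymes also belong to the urea cycle of the hepatocyte.

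All values are FPKM, a level per transcript length and per library, so levels of different genes were compared within a table. Log2FC values are differences of log2(FPKM + 0.5), which understates the change of low genes. A gene was tested when its mean FPKM over the 9 libraries of a table was above 1. This held for 8 of the 9 members among 9905 genes in macrophages (Arg1 was below) and for 6 members among 10147 genes in liver (Nos2, Arg2 and Slc7a1 were below). A gene was called when the adjusted P-value was below 0.01 in macrophages, or below 0.05 in liver, with an absolute Log2FC above 1.

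The estimated depth was 19.1 M to 25.3 M fragments in the macrophage libraries and 4.94 M to 20.2 M in the liver libraries. LPS library 2 of the macrophages stood apart from the rest of its group. Its median distance from LPS libraries 1 and 3, over genes with 500 to 2000 estimated reads and in units of sampling variance, was 92.7 and 89.8, whereas libraries 1 and 3 lay 2.60 apart and library 2 of the control and LPS+MIC-1 groups lay 8.77 to 14.1 from the others of its group. Of the 9 members, 7 were inside the control range in this library, and the exceptions were Ass1 at 1.18 times and Slc7a2 at 1.42 times the control mean. The tests of the members in macrophages are therefore given with all 9 libraries and again without LPS library 2, a choice made with its values known, and those of other genes name the libraries used. In liver 1 library of each group lay far from the other 2, with median distances of 69.9 and 73.5 for control library 1, 74.9 and 80.4 for LPS library 2, and 32.7 and 31.6 for LPS+MIC-1 library 2. The close pairs of both tables lay 1.94 to 6.94 apart, so no pair of libraries was within sampling noise of the other.

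The cell labels were checked against marker genes. In RAW264.7 cells the summed FPKM of the 9 macrophage markers found was 11632 to 14388 and that of 10 hepatocyte markers 2.77 to 15.0, with Hnf4a at 0 in all 9 libraries. In liver the hepatocyte markers summed to 37716 to 86159. Some marker lists moved with treatment. The neutrophil list in the cells summed to 2.52 to 3.67 in controls, 33.5, 5.08 and 43.7 after LPS, and 689.7 to 756 after LPS+MIC-1, nearly all of it S100a8 at 651 to 718. Of the granule genes in that list, Mpo and Ngp were at or near 0, and Mmp8 was 0.0908, 0.157 and 0.0930 in controls, 1.23, 0.198 and 2.13 after LPS, and 35.7, 21.4 and 35.2 after LPS+MIC-1. In liver the macrophage list summed to 41.0 to 62.7 in controls, 692.6, 182 and 669 after LPS, and 173, 481 and 174 after LPS+MIC-1, and the neutrophil list to 37.6 to 53.1, 354 to 449 and 192 to 462. The genes of this neutrophil list did not all move alike. S100a8 was 2.13 to 7.98 in control livers, 228 to 286 after LPS and 141 to 339 after LPS+MIC-1. Cxcr2 was most of the control sum, at 26.5 to 42.6, and was lower after LPS, at 3.89 to 10.1, and after LPS+MIC-1, at 3.59 to 7.79. Cd14, the LPS co-receptor, was most of the macrophage sum in LPS libraries 1 and 3 and in LPS+MIC-1 library 2, but not in the other livers. Its values were 569, 84.2 and 552 after LPS and 56.7, 407 and 61.4 after LPS+MIC-1. Lyz2 of the same list was 41.4, 28.0 and 41.8 after LPS and 58.6, 19.1 and 56.7 after LPS+MIC-1. The Kupffer cell list summed to 102 to 112, 90.1 to 109.9 and 83.0 to 177 in the same groups, but its genes moved in different directions. C6 was most of the sum in controls, at 52.3 to 81.9, and after LPS, at 49.97 to 55.97. Clec4f was 13 to 30.1 in controls, 2.855 to 6.32 after LPS and 4.33 to 4.83 after LPS+MIC-1. Vsig4 was also below all controls in every LPS-exposed liver. Marco was higher, at 2.18 to 6.79 in controls, 23.1 to 40.4 after LPS and 38.4 to 75.6 after LPS+MIC-1. The T and NK cell list reached 9.47 in liver and 0.474 in the cells, the B cell list 4.57 and 0.304, and the endothelial list 45.7 and 0.640. The stellate cell list reached 238 in liver and 2.94 in the cells, and the erythroid list 1847 and 0.266. The cholangiocyte list summed to 73.4 to 105 in liver, and in the cells it was carried by Spp1, which macrophages also make, with Krt19, Krt7 and Epcam at 0. The part of these markers in the results below was not tested.

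Nos2 (chr11:78734289-78773756, plus strand, mm9) was low in control macrophages and high in LPS libraries 1 and 3. The control libraries held 5.12, 17.9 and 6.93 FPKM, the LPS libraries 239.9, 16.8 and 270.5 FPKM, and the LPS+MIC-1 libraries 158, 98.2 and 185 FPKM. LPS library 2 overlapped the controls, and all 3 LPS+MIC-1 libraries lay between the controls and the other 2 LPS libraries. The mean of LPS libraries 1 and 3 was 25.6 times the control mean. With 9 libraries the Log2FC of LPS against control was 3.51 ± 1.00 (SE), which did not pass (limma adjusted p = 0.0777). Leaving out LPS library 2 gave 4.80 ± 0.48, which passed (limma adjusted p = 5.29e-05).

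With MIC-1 the sign of the Nos2 difference depended on a single library. LPS+MIC-1 against LPS gave a Log2FC of 0.45 ± 1.00 with 9 libraries (limma adjusted p = 0.766) and of -0.84 ± 0.48 without LPS library 2 (limma adjusted p = 0.153), and neither passed. When the 8 libraries were also rescaled to the same FPKM sum, the difference was -0.04 ± 0.46. Against control, Nos2 in LPS+MIC-1 had a Log2FC of 3.96, with an SE of 1.00 over 9 libraries (limma adjusted p = 0.0251, above the threshold) and of 0.43 without LPS library 2 (limma adjusted p = 0.000156).

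Gch1 (chr14:47773570-47809088, minus strand) encodes GTP cyclohydrolase, the first and rate-limiting enzyme of tetrahydrobiopterin synthesis, the cofactor that nitric oxide synthases require. It was 16.2, 19.9 and 15.7 FPKM in controls, 40.4, 19.1 and 43.7 after LPS, and 46.5, 50.5 and 47.4 after LPS+MIC-1. The 3 LPS+MIC-1 libraries were above every LPS library, including libraries 1 and 3, so Gch1 and Nos2 stood in different orders in these groups. Without LPS library 2 the Log2FC was 1.27 ± 0.11 for LPS against control and 1.46 ± 0.10 for LPS+MIC-1 against control, and both passed (limma adjusted p = 2.27e-05 and 1.78e-05). With 9 libraries these were 0.89 ± 0.29 and 1.46 ± 0.29, and neither passed (limma adjusted p = 0.0777 and 0.0101). LPS+MIC-1 against LPS gave 0.57 ± 0.29 with 9 libraries and 0.19 ± 0.11 without LPS library 2 (limma adjusted p = 0.185 and 0.146), neither of which passed. Rescaling to the same sum gave 1.06 ± 0.14 with 9 libraries, which passed (limma adjusted p = 0.00325), and 0.99 ± 0.09 with 8 libraries, just under the fold threshold (limma adjusted p = 3.25e-05).

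Arginine reaches the enzymes through cationic amino acid transporters. Slc7a2 (chr8:41947750-42007662, plus strand), the inducible transporter, was close to absent in control macrophages at 0.170, 0.262 and 0.242 FPKM. It was 12.5, 0.318 and 13.3 FPKM after LPS and 4.86, 1.26 and 4.53 FPKM after LPS+MIC-1. In LPS libraries 1 and 3 it stood at 57.3 times the control mean, the highest ratio among the 9 members, though against a control mean of 0.225 FPKM. Without LPS library 2 it was higher with LPS than in controls, with a Log2FC of 4.21 ± 0.44 (limma adjusted p = 6.6e-05), and with 9 libraries the Log2FC was 2.86 ± 1.02 (limma adjusted p = 0.0777). It was lower with LPS+MIC-1 than with LPS by the same fit, with a Log2FC of -1.88 ± 0.44 (limma adjusted p = 0.006). With 9 libraries the same difference was -0.54 ± 1.02 and did not pass (limma adjusted p = 0.725), and after rescaling the 8 libraries to the same sum it was -1.14 ± 0.45 with an adjusted p of 0.0465 from limma, again not past the threshold.

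Slc7a1 (chr5:149138986-149211480, minus strand), the constitutive transporter, did not follow this order. Its values were 12.0, 3.88 and 16.1 FPKM in controls, 3.10, 6.26 and 8.15 after LPS, and 5.99, 13.1 and 7.16 after LPS+MIC-1. The groups overlapped in every comparison. The controls differed 4.15-fold among themselves, and LPS libraries 1 and 3, which were nearly alike for the other tested members, differed 2.62-fold here on about 293 and 822 estimated reads. No fit called Slc7a1, and LPS against control gave a Log2FC of -0.70 ± 0.55 with 9 libraries (limma adjusted p = 0.306), -0.79 ± 0.62 without LPS library 2 (limma adjusted p = 0.275), and -1.69 ± 0.63 with the 8 libraries rescaled to the same sum (limma adjusted p = 0.0359).

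Ass1 (chr2:31325727-31376192, plus strand) and Asl (chr5:130487128-130501002, minus strand) rebuild arginine from citrulline. Ass1 was 14.1, 16.1 and 14.2 FPKM in control macrophages, 41.7, 17.5 and 40.0 after LPS, and 30.4, 21.4 and 30.2 after LPS+MIC-1. Asl was 21.9, 24.3 and 20.1 FPKM in controls, 69.3, 23.3 and 65.8 after LPS, and 37.1, 35.6 and 36.8 after LPS+MIC-1. In both genes the LPS+MIC-1 libraries lay above all controls and below LPS libraries 1 and 3. Both were, when LPS library 2 was left out, called higher with LPS, with a Log2FC of 1.44 ± 0.15 for Ass1 and of 1.59 ± 0.09 for Asl (limma adjusted p = 7.23e-05 and 3.26e-06). With 9 libraries they were 1.04 ± 0.32 and 1.09 ± 0.37, which did not pass (limma adjusted p = 0.0777 for both).

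The fit without LPS library 2 placed both genes lower with LPS+MIC-1 than with LPS, with a Log2FC of -0.59 ± 0.15 for Ass1 and of -0.88 ± 0.09 for Asl (limma adjusted p = 0.00987 and 7.11e-05), sizes under the fold threshold, and with 9 libraries the Log2FC was -0.19 ± 0.32 and -0.37 ± 0.37 (limma adjusted p = 0.693 and 0.483). Rescaling the 8 libraries to the same sum removed this difference, with a Log2FC of 0.20 ± 0.15 for Ass1 and of -0.08 ± 0.08 for Asl. That scaling lowered the median of all tested genes to -0.93 for LPS against control and raised it to 0.74 for LPS+MIC-1 against LPS. Relative to those medians Ass1 and Asl stood higher with LPS than in controls and lower with LPS+MIC-1 than with LPS.

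Arg1 and Arg2 encode the cytosolic and the mitochondrial arginase. Arg2 (chr12:80231764-80257288, plus strand) was 1.10, 1.30 and 1.12 FPKM in control macrophages, 11.7, 1.23 and 10.4 after LPS, and 36.8, 45.5 and 36.6 after LPS+MIC-1. The LPS+MIC-1 libraries were all above every LPS library. Arg2 was the single member called with 9 libraries in macrophages, by LPS+MIC-1 against control at a Log2FC of 4.58 ± 0.65 (limma adjusted p = 0.00301), a comparison in which 5.59% of all tested genes were called. That call was lost when any 1 of the control or LPS+MIC-1 libraries was left out, with adjusted P-values of 0.0131 to 0.0192 from limma and a Log2FC of 4.48 to 4.63. LPS+MIC-1 against LPS gave 2.71 ± 0.65 with 9 libraries, short of the threshold (limma adjusted p = 0.0253), and 1.79 ± 0.12 without LPS library 2, which passed (limma adjusted p = 1.19e-05). It also passed with 9 libraries rescaled to the same sum, at 3.20 ± 0.47 (limma adjusted p = 0.0049). LPS against control gave 2.79 ± 0.12 without LPS library 2 (limma adjusted p = 1.45e-06) and 1.88 ± 0.65 with 9 libraries (limma adjusted p = 0.0777).

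Arg1 (chr10:24635014-24647276, minus strand) remained near the lower limit of detection in macrophages. It was 0.282, 0.340 and 0.161 FPKM in controls and 0.543, 0.308 and 0.255 with LPS, which stood for about 5.3 to 10.5 estimated reads a library. With LPS+MIC-1 it was 2.07, 0.641 and 2.20 FPKM, about 18.0 to 58.0 reads, above every control and LPS library. It was below the expression filter. With no filter on low values the Log2FC of LPS+MIC-1 against LPS was 1.21 ± 0.33 (limma adjusted p = 0.0505) and did not pass.

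Odc1 (chr12:17551679-17558308, plus strand), the ornithine decarboxylase gene, had the highest level of the 9 members in macrophages. It was 283, 355 and 283 FPKM in controls, 3108, 353 and 3217 after LPS, and 2764, 3088 and 2758 after LPS+MIC-1. LPS+MIC-1 libraries and LPS libraries 1 and 3 lay close together, at about 10.3 times the control mean in the latter. The Log2FC without LPS library 2 was 3.37 ± 0.11 for LPS against control (limma adjusted p = 6.58e-07), 3.23 ± 0.10 for LPS+MIC-1 against control (limma adjusted p = 1.63e-06) and -0.14 ± 0.11 for LPS+MIC-1 against LPS (limma adjusted p = 0.29). With 9 libraries the same 3 differences were 2.32, 3.23 and 0.91, each with an SE of 0.75, and did not pass (limma adjusted p = 0.0777, 0.0189 and 0.399), so the last one changed sign with LPS library 2. It was 0.66 ± 0.09 with the 8 libraries rescaled to the same sum (limma adjusted p = 0.000268), under the fold threshold.

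**Figure D1:**
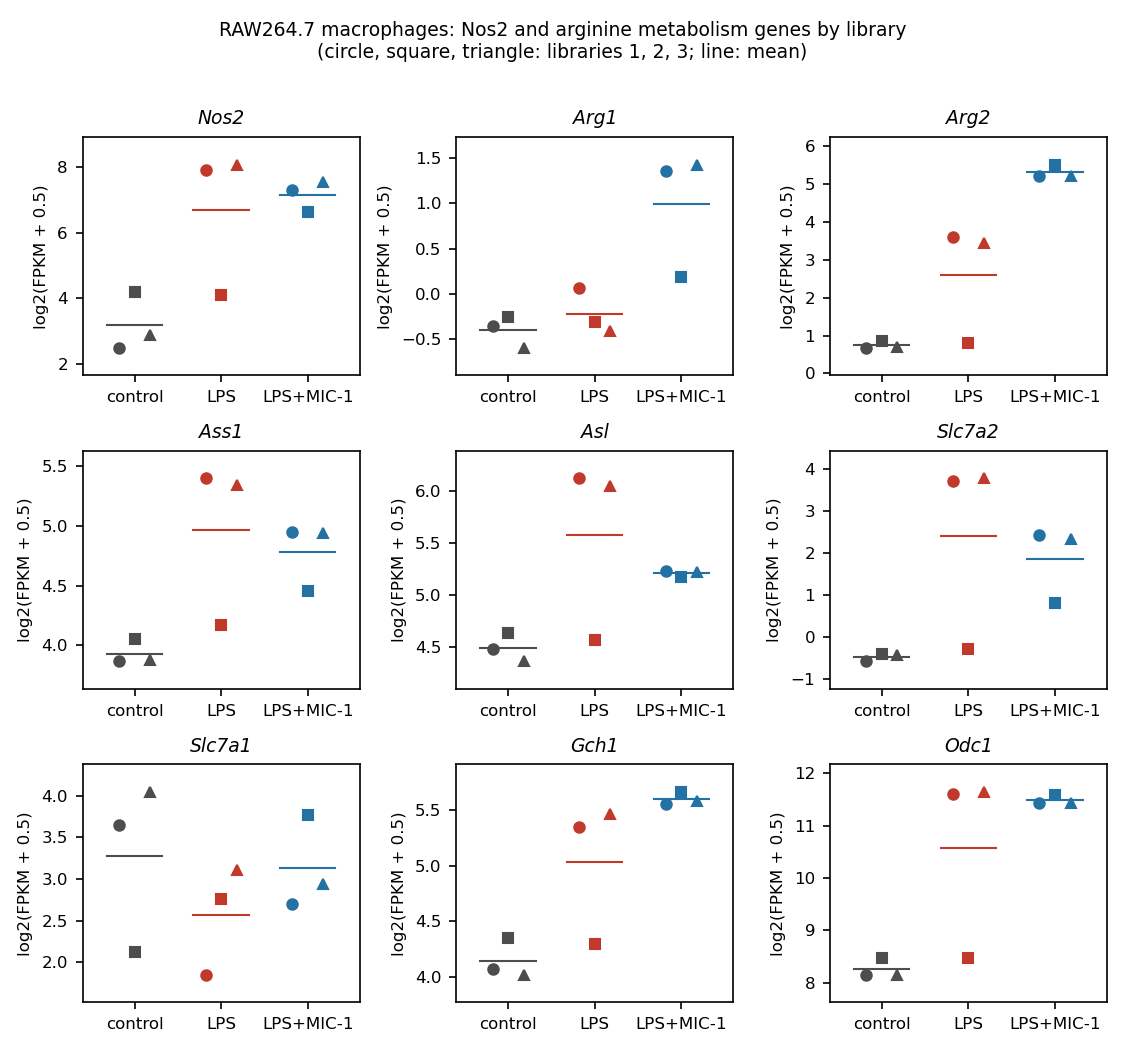
Level of each of the 9 genes in every RAW264.7 library, as log2(FPKM + 0.5) on the vertical axis, by group on the horizontal axis, with circles, squares and triangles for libraries 1, 2 and 3 and a line at the group mean. LPS library 2 (red square) lies at the level of the controls for most genes, Arg2 and Gch1 are highest in LPS+MIC-1, and Slc7a1 follows no group.

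Counted over the members, no member was called with 9 libraries for LPS against control by limma, where 0.0% of all tested genes were called. In that fit 7 of 8 members had an unadjusted P-value below 0.05. The share of all tested genes at that unadjusted level was not counted, so such counts cannot be set against the shares called. In the 8 libraries left without LPS library 2, 7 of 8 were called higher, where 34.2% of all tested genes were called, 16.3% higher and 17.9% lower. The member that was not called was Slc7a1. Rescaling these 8 libraries to the same sum left 4 members called, Nos2, Slc7a2, Odc1 and Arg2, at a Log2FC of 1.93 to 3.83, where 51.2% of all tested genes were called, and Asl, Ass1 and Gch1 at 0.62, 0.47 and 0.29 were under the fold threshold. For LPS+MIC-1 against LPS no member was called with 9 libraries (3.87% of all tested genes were, and 1 member, Arg2, had an unadjusted P-value below 0.05). Arg2 was called higher and Slc7a2 lower once LPS library 2 was left out (23.3% of all tested genes, 11.3% higher and 12.0% lower). Against control, LPS+MIC-1 had 1 of 8 members called with 9 libraries (5.59% of all tested genes) and 5 without LPS library 2 (15.7%), which were Arg2, Nos2, Odc1, Slc7a2 and Gch1. LPS library 2 is not part of this last comparison, and it enters only through the shared estimate of the spread. Of all tested genes 7.55% were called higher in the 8-library fit. When only control and LPS+MIC-1 libraries were in the fit, those 5 genes were called as well, with 15.6% of all tested genes. Ranges that did not overlap were found with 9 libraries for 2 of the 8 tested members for LPS against control (33.3% of all tested genes), for 2 for LPS+MIC-1 against LPS (36.1%) and for 7 for LPS+MIC-1 against control (66.4%). With LPS library 2 left out they were found for 7 members in each of the comparisons that use LPS libraries (85.6% and 80.3% of all tested genes). The comparisons share control or LPS libraries and are not independent of each other. Nothing in the labels says that the 3 libraries of a group came from separate cultures, so these P-values measure the spread between these libraries only.

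Upstream regions were found in the promoter reference for Ass1, Gch1, Odc1 and Slc7a1 and for no other member. The mouse genome regions upstream of 3 of these genes are shown. Ass1 was taken because it lay on opposite sides of the controls in the 2 sample types, and Gch1 and Odc1 stand for the cofactor and polyamine branches. They are the 250 bases before the transcription start from RefSeq on GRCm38.p6, a later build than the mm9 of the expression tables, read 5′ to 3′ on the strand of the gene. Capitals mark matches on either strand to the motifs searched.
Ass1, chr2:31470020-31470269, plus strand: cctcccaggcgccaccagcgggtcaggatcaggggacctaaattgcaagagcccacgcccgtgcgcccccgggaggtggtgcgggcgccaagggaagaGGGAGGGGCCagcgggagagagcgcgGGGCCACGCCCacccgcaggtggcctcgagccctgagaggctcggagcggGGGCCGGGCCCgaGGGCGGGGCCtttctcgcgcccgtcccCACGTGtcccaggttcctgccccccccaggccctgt
Gch1, chr14:47189414-47189663, minus strand: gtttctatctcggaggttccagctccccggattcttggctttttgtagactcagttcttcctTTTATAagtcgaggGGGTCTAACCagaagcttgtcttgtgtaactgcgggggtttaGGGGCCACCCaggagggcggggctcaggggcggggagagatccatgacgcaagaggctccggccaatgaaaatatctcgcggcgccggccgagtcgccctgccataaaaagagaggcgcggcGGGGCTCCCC
Odc1, chr12:17544623-17544872, plus strand: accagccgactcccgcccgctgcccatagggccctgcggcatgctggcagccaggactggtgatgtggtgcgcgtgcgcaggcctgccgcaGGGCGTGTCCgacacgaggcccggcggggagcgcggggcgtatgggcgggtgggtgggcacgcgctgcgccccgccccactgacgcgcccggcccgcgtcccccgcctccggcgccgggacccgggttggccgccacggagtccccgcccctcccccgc
The motifs searched on both strands were an NF-kB type of GGG and CC with 5 bases of any kind between them, an interferon-response type of GAAA and GAAA with 2 bases between them, a GAS type TTCNNNGAA, a C/EBP type TTGCNNAA, an AP-1 type TGANTCA, an antioxidant-response type TGACNNNGC, an E-box CACGTG and a TATA box TATAAA. Counting the base before the start as -1, the Ass1 region held 6 matches to the NF-kB type between -152 and -54, in which 2 pairs were overlapping matches on opposite strands, and an E-box at -36 to -31. The Gch1 region held the NF-kB type at -174 to -165, at -132 to -123 and at -10 to -1, and TATAAA on the opposite strand at -188 to -183. The Odc1 region held the NF-kB type at -159 to -150 and no other match. The NF-kB type searched is loose and was present in 45.8% of 32851 promoters of the same length, CACGTG in 6.02% and TATAAA in 12.4%. The interferon-response type was in 2.98%, TTCNNNGAA in 7.02% and TTGCNNAA in 9.56%, and none of the 3 regions held one. Slc7a1 had 2 starts in the same reference, with 5 matches to the NF-kB type and 1 each to TGANTCA and TGACNNNGC before the first, motifs that 6.75% and 10.2% of promoters held, and 1 each to TTCNNNGAA and TATAAA before the second. These matches describe the letters only. Nos2, Arg1, Arg2, Asl and Slc7a2 were not matched in that reference, so their upstream regions were not searched.

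In liver the same genes stood in another order. Nos2, Arg2 and Slc7a1 were nearly absent, and the urea cycle enzymes Arg1, Ass1 and Asl were at 274 to 4362 FPKM. In whole tissue a lower level can mean fewer cells of a type or less RNA per cell, and these cannot be told apart.

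Arg1 was called higher in both LPS-exposed groups of livers. Its levels were 973, 730.2 and 646 FPKM in controls, 2414, 1468 and 2583 after LPS, and 1966, 1700.4 and 2072 after LPS+MIC-1. All 6 LPS-exposed livers were above all controls. The Log2FC was 1.44 ± 0.28 for LPS against control (limma adjusted p = 0.00757) and 1.30 ± 0.28 for LPS+MIC-1 against control (limma adjusted p = 0.00918), and both passed. Arg1 was called in both comparisons whichever single library was left out. Rescaling to the same sum ended the LPS+MIC-1 call, at 0.65 ± 0.25 (limma adjusted p = 0.0627), in a scaling that moved the median of all tested genes to -0.43.

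Odc1 was 13.8, 12.8 and 10.5 FPKM in control livers, 51.7, 18.5 and 50.5 after LPS, and 34.2, 33.3 and 30.1 after LPS+MIC-1. The groups did not overlap with the controls, and LPS library 2 was the lowest of the LPS-exposed livers. The Log2FC was 1.54 ± 0.36 with LPS (limma adjusted p = 0.0152) and 1.37 ± 0.36 with LPS+MIC-1 (limma adjusted p = 0.0206). The LPS call was lost without control library 3, LPS library 1 or LPS library 3, at adjusted P-values of 0.0539, 0.0575 and 0.0631 from limma. The LPS+MIC-1 call was lost without control library 2 or 3 or without any 1 of the LPS+MIC-1 libraries, at 0.05 to 0.0692, and after rescaling to the same sum, at a Log2FC of 0.73 ± 0.37 (limma adjusted p = 0.141).

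Ass1 was lower with LPS in liver, while it was higher in LPS libraries 1 and 3 of the macrophages. It was 4362, 1527 and 1468 FPKM in controls, 786, 564 and 655 after LPS, and 1275, 416 and 1304 after LPS+MIC-1. Every LPS-exposed liver was below every control, and control library 1 was 2.97 times control library 3. The Log2FC of LPS against control was -1.69 ± 0.55 (limma adjusted p = 0.0422). That call was lost when any 1 of 8 of the 9 libraries was left out, with adjusted P-values of 0.0541 to 0.115 from limma and a Log2FC of -1.96 to -1.18, and it stayed only without LPS+MIC-1 library 2. LPS+MIC-1 against control gave -1.27 ± 0.55 and did not pass (limma adjusted p = 0.0973), and after rescaling to the same sum it gave -1.93 ± 0.49, which passed (limma adjusted p = 0.0136). Among the controls the hepatocyte marker sum was also highest in library 1, at 86159, 42445 and 43523 in libraries 1 to 3. Arg1 was highest there as well, whereas Asl was lowest there and Otc was 208, 204 and 256 FPKM. The part of hepatocyte content in the Ass1 level was not tested.

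Asl, the next enzyme of the same cycle, was 274, 327 and 336 FPKM in controls, 379, 477 and 416 after LPS, and 465, 561 and 475 after LPS+MIC-1. All LPS-exposed livers were above all controls, so that Ass1 and Asl lay on opposite sides of the controls in liver. The Asl difference passed on the adjusted P-value for LPS+MIC-1 against control but was under the fold threshold, at a Log2FC of 0.68 ± 0.19 (limma adjusted p = 0.0227), and LPS against control gave 0.44 ± 0.19 (limma adjusted p = 0.0949).

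Gch1 and Slc7a2 were not called in liver. Gch1 was 27.0, 13.0 and 18.6 FPKM in controls, 15.7, 9.88 and 17.0 after LPS, and 18.5, 17.5 and 18.5 after LPS+MIC-1. The 3 LPS+MIC-1 livers were above all LPS livers, by a Log2FC of 0.38 ± 0.29 (limma adjusted p = 0.997), and 9.75% of all tested genes had groups that did not overlap in this comparison. Slc7a2, which is made by hepatocytes, was 32.8, 28.9 and 28.1 FPKM in controls, 40.1, 19.7 and 40.9 after LPS, and 48.0, 18.3 and 47.3 after LPS+MIC-1. In both LPS-exposed groups library 2 was below, and libraries 1 and 3 above, all controls. Its Log2FC was 0.09 ± 0.41 for LPS against control (limma adjusted p = 0.871).

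The remaining members were at or near 0. Nos2 was listed at 0 in 7 of the 9 livers, at 0.163 FPKM in LPS library 1 and at 0.190 FPKM in LPS+MIC-1 library 1, each about 10.8 estimated reads. Slc7a1 was listed at 0 in 8 livers and at 0.614 FPKM in LPS library 1, about 69.7 estimated reads. Arg2 was 0, 0.416 and 0.136 FPKM in controls, 0.667, 0.137 and 0.808 after LPS, and 0.495, 0.524 and 0.464 after LPS+MIC-1, on at most 17.2 estimated reads. A response of Nos2 was not detectable in liver at this depth.

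**Figure D2:**
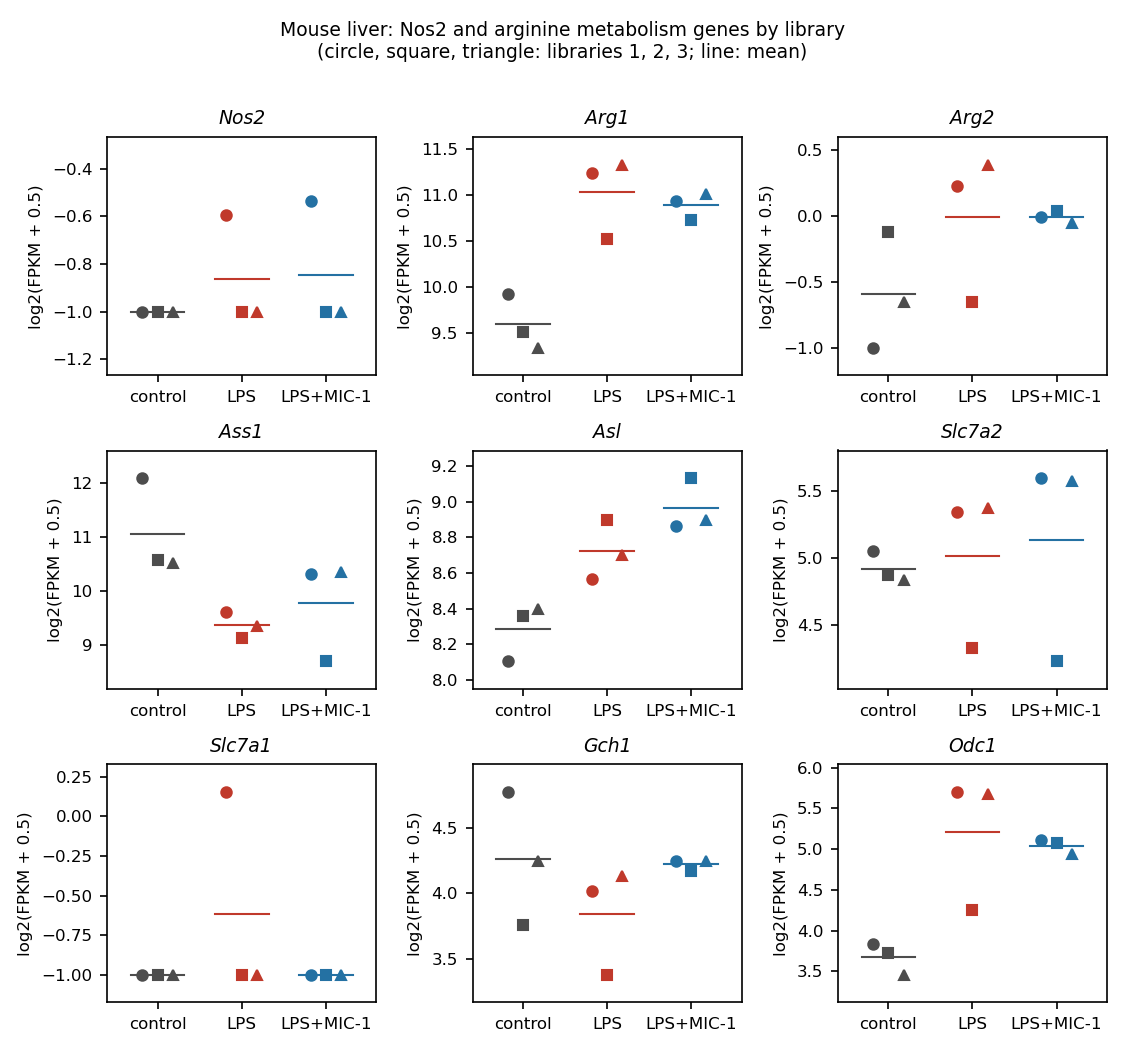
Level of each of the 9 genes in every liver library, as log2(FPKM + 0.5) on the vertical axis, by group on the horizontal axis, with circles, squares and triangles for libraries 1, 2 and 3 and a line at the group mean. Arg1, Asl and Odc1 are above the controls in all LPS-exposed livers and Ass1 is below them, and the panels of Nos2, Arg2 and Slc7a1 span values at or near 0 FPKM.

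Over the members tested in liver, 3 of 6 were called for LPS against control, with Arg1 and Odc1 higher and Ass1 lower, where 24.6% of all tested genes were called, 13.4% higher and 11.2% lower. Against control, LPS+MIC-1 had 2 of 6 members called, Arg1 and Odc1, both higher, where 25.2% of all tested genes were called and 13.8% were called higher. Ranges did not overlap for 4 of 6 members in each of these comparisons, against 45.0% and 54.6% of all tested genes. For LPS+MIC-1 against LPS no member was called by limma, no member had an unadjusted P-value below 0.05, and 0.0% of all tested genes were called. The Log2FC of the 6 members in this last comparison ran from -0.17 for Odc1 to 0.42 for Ass1, with SE of 0.19 to 0.55. When the 2 closest libraries of each group were averaged and counted as 1, an alternative added after the distances were seen, no member was called in liver in any comparison.

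**Figure D3:**
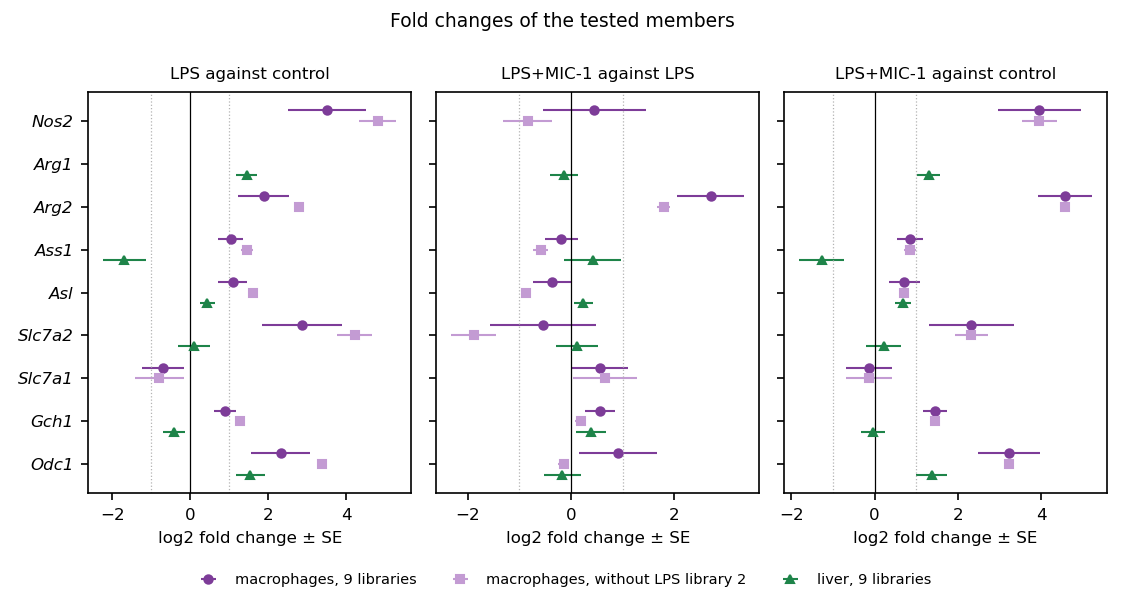
Log2FC with SE bars of the members tested, for LPS against control, LPS+MIC-1 against LPS and LPS+MIC-1 against control, in macrophages with 9 libraries (circles) and without LPS library 2 (squares) and in liver (triangles), with dotted lines at the fold threshold. Arg2 lies right of 0 in all macrophage panels, Nos2 lies on either side of 0 in the middle panel depending on LPS library 2, and Ass1 is on opposite sides of 0 in macrophages and liver in the outer panels. Gch1 was not called in liver, and its sign there for LPS+MIC-1 against control changed with the library left out.

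Ratios within a library put the competing genes side by side. Arg1 made up 20.5%, 20.8% and 12.5% of the summed FPKM of both arginases in control macrophages, 4.45%, 20.0% and 2.39% after LPS, and 5.32%, 1.39% and 5.66% after LPS+MIC-1, so Arg2 was the main arginase transcript in every macrophage library. In liver Arg1 was at least 99.9% of the sum in every library. Slc7a2 made up 1.40%, 6.33% and 1.48% of the summed FPKM of both transporters in control macrophages, 80.1%, 4.84% and 61.9% after LPS, and 44.8%, 8.77% and 38.8% after LPS+MIC-1. In liver it made up 98.5% in LPS library 1 and the whole sum in the other 8 libraries, where Slc7a1 was listed at 0.

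The ratio of Nos2 to Arg1, as log2 of (Nos2 + 0.5)/(Arg1 + 0.5), was 2.84, 4.45 and 3.49 in control macrophages, 7.85, 4.42 and 8.49 after LPS, and 5.94, 6.43 and 6.10 after LPS+MIC-1. Nos2 exceeded Arg1 in every macrophage library, and Arg1 exceeded Nos2 in every liver. Nos2 was listed at 0 in 7 livers, so the liver ratios there are set by the pseudocount and the Arg1 level, and neither their values nor their tests are read here. In macrophages Arg1 was 0.161 to 0.340 FPKM in controls and 0.255 to 0.543 after LPS. The added 0.5 therefore lowers those ratios and sets much of their size, and the order of the groups is described with that limit. The LPS+MIC-1 ratios lay above all control ratios and between LPS library 2 and LPS libraries 1 and 3. Exact two-sided permutation tests were made for the 3 ratios in 3 comparisons and 2 sample types, 18 tests in all, and with 3 libraries against 3 none can go below p = 0.1. The exact permutation p was 0.1 for the 3 ratios in LPS+MIC-1 against control macrophages, with a Benjamini-Hochberg adjusted value of 0.36. None of the differences in macrophages passed.

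**Figure D4:**
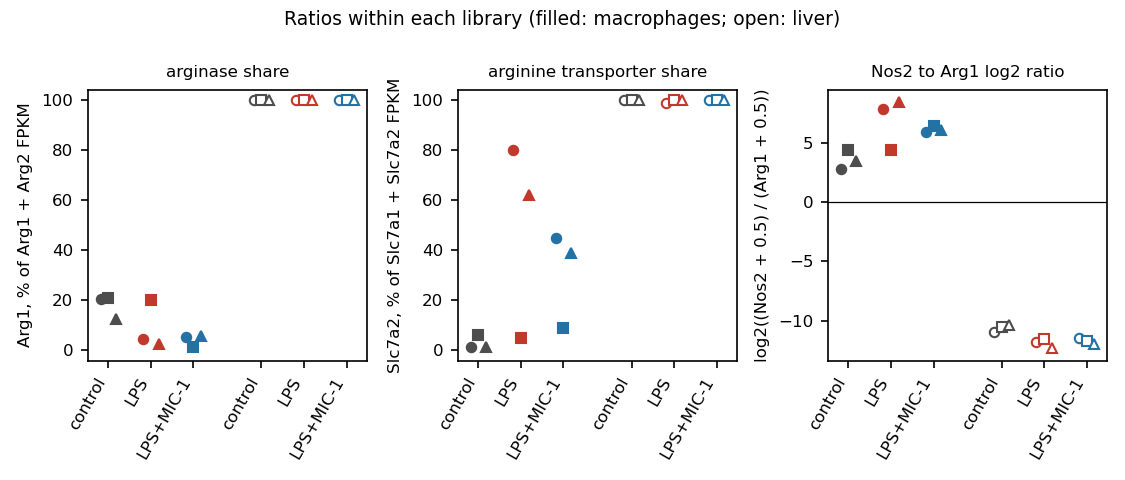
The 3 ratios within each library on the vertical axes, by group, in macrophages (filled) and liver (open), with circles, squares and triangles for libraries 1, 2 and 3. The arginase share of Arg1 is 1.39% to 20.8% in macrophages and above 99.9% in liver, the Slc7a2 share among macrophages is highest in LPS libraries 1 and 3, and the Nos2 to Arg1 ratio is above 0 in every macrophage library and below 0 in every liver, where the 0.5 added to a Nos2 of 0 sets its size in 7 libraries.

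The wider pathway was described with 7 lists of 59 genes that hold none of the 9 members, of which 58 were found (Amd1 was not), 36 were tested in macrophages and 44 in liver. For LPS against control macrophages without LPS library 2, 5 of 36 were called higher and 11 lower (16.3% and 17.9% of all tested genes), with a median Log2FC of -0.26 beside -0.03 for all tested genes. With 9 libraries none were called in either direction by limma. Of the 36, 21 had an unadjusted P-value below 0.05, a level at which the share of all tested genes was not counted. In the tetrahydrobiopterin list Pts and Spr were lower. Pts, the next enzyme of that synthesis, was 14.3, 13.1 and 15.2 FPKM in controls, 3.49, 13.0 and 2.36 after LPS, and 12.2, 11.6 and 10.6 after LPS+MIC-1. Its Log2FC without LPS library 2 was -2.12 ± 0.15 for LPS against control and 1.82 ± 0.15 for LPS+MIC-1 against LPS (limma adjusted p = 8.42e-06 and 2.66e-05). Spr, the last enzyme of the synthesis, gave -2.28 ± 0.14 and 1.51 ± 0.14 in the same 2 comparisons and libraries. Gchfr, whose product regulates GTP cyclohydrolase, was in this fit higher with LPS by 1.43 ± 0.17 and lower with LPS+MIC-1 than with LPS by a Log2FC of -1.08 ± 0.17. Gch1 thus rose with LPS in this fit while Pts and Spr fell. The tests of the list genes in macrophages are given without rescaling to the same sum. FPKM sums were 1137533 and 1132904 in LPS libraries 1 and 3, and 557136 to 652486 in the other macrophage libraries. Rescaling the 8 libraries moved the median of all tested genes to -0.93 for LPS against control and to 0.74 for LPS+MIC-1 against LPS. Sizes such as those of Gchfr may thus differ after rescaling.

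The polyamine list also moved both ways in macrophages. Srm, the spermidine synthase gene, was 233, 193 and 238 FPKM in controls, 34.5, 190.7 and 33.6 after LPS, and 78.4, 142 and 80.2 after LPS+MIC-1. Its Log2FC in the 8 libraries was -2.68 ± 0.25 for LPS against control (limma adjusted p = 3.34e-05), beside the increase of Odc1. Sat1, which starts polyamine breakdown, was higher with LPS by 2.26 ± 0.15 in the same libraries. Smox, the spermine oxidase gene, was 34.5, 45.3 and 32.3 FPKM in controls, 122, 48.0 and 115 after LPS, and 283, 162 and 282 after LPS+MIC-1. Smox was called with 9 libraries for LPS+MIC-1 against control, at 2.65 ± 0.38 (limma adjusted p = 0.00306).

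Among transport genes, Slc3a2 and Slc7a7, which encode the heavy chain and a light chain of an exchanger for cationic amino acids, were the 2 genes of the lists called with 9 libraries for LPS+MIC-1 against LPS, where 3.87% of all tested genes were called. Slc3a2 was 109.9, 133 and 109.5 FPKM in controls, 203, 132 and 201 after LPS, and 368, 514 and 369 after LPS+MIC-1. Its Log2FC was 1.23 ± 0.21 against LPS and 1.81 ± 0.21 against control (limma adjusted p = 0.00749 and 0.00139). Slc7a7 gave 1.81 ± 0.32 against LPS (limma adjusted p = 0.00864) from values of 0.213 to 0.826 FPKM after LPS and 2.62 to 4.20 FPKM after LPS+MIC-1. With 9 libraries LPS+MIC-1 against control called 4 genes of the lists higher and 2 lower (5.59% of all tested genes were called), the other 4 being Slc38a9, Smox, Sms and Gamt. Without LPS library 2 the counts were 7 higher and 5 lower of 36 against LPS (11.3% and 12.0% of all tested genes), and 6 higher and 5 lower against control (15.7% in both directions).

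Of the other lists in macrophages, the creatine synthesis gene Gatm was lower. It was 59.4, 51.7 and 62.2 FPKM in controls, 12.9, 51.4 and 11.8 after LPS, and 17.8, 23.0 and 18.5 after LPS+MIC-1, with a Log2FC of -2.18 ± 0.13 for LPS against control without LPS library 2 (limma adjusted p = 4.57e-06). Oat, which turns ornithine towards proline and glutamate, gave -1.09 ± 0.14 in the same comparison. Of 8 markers of alternative activation, 2 were tested, and Il4ra was called higher with LPS at 2.35 ± 0.21 without LPS library 2. The other, Clec10a, was 6.14, 5.17 and 7.81 FPKM in controls, 3.34, 6.83 and 2.48 after LPS, and 13.1, 7.26 and 12.8 after LPS+MIC-1, and it was called higher for LPS+MIC-1 against LPS in that fit, at 1.73 ± 0.28 (limma adjusted p = 0.000882).

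In liver 8 of 44 genes of the lists were called higher and 12 lower for LPS against control (13.4% and 11.2% of all tested genes), with a median Log2FC of 0.32 beside 0.15 for all tested genes. The lower genes included 2 of the 4 tested genes of the list of other urea cycle steps and 3 of the 5 of the ornithine and proline list. For LPS+MIC-1 against control each of these lists had 1 gene called higher and 1 called lower, where 25.2% of all tested genes were called. Cps1, which opens the urea cycle, was 301, 236 and 234 FPKM in controls, 71.8, 82.2 and 67.5 after LPS, and 267, 57.1 and 268 after LPS+MIC-1. Its Log2FC was -1.79 ± 0.54 for LPS against control (limma adjusted p = 0.0331). Cps1 and Ass1 were both lowest in LPS+MIC-1 library 2 within its group. That library had the highest Cd14 and the lowest Lyz2 of its group, and their part in the levels was not tested. Otc was 208, 204 and 256 FPKM in controls and 57.3 to 86.3 with LPS, a Log2FC of -1.74 ± 0.24 (limma adjusted p = 0.00257). Oat gave -1.52 ± 0.18, Prodh -2.63 ± 0.48 and Gamt -2.77 ± 0.21. Of the urea cycle genes Arg1 was thus called higher and Cps1, Otc and Ass1 lower, with Asl not called.

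The higher genes in liver included Slc3a1, a transporter heavy chain, at 2.24 ± 0.51, Smox at 1.55 ± 0.40 and Spr at 1.64 ± 0.48. Chi3l3 and Retnla, 2 markers of alternative activation, gave 4.19 ± 0.51 and 3.83 ± 1.11, while Mrc1 and Cd163 of the same list gave -1.30 ± 0.42 and -1.38 ± 0.30. In LPS+MIC-1 livers, against control, limma called 10 of 44 genes higher and 4 lower (25.2% of all tested genes were called, 13.8% higher). It called none in either direction between LPS+MIC-1 and LPS. There 6 had an unadjusted P-value below 0.05, a level at which the share of all tested genes was not counted.

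The genes most like Nos2 across the 9 macrophage libraries were found by the distance between standardized log2 values, a description over libraries that share groups. The nearest 5 of the other tested genes were Dhrs3 at 0.188, Cd200r1 at 0.227, Xylt2 at 0.229, Cd80 at 0.233 and Bst1 at 0.236. Cd80, which encodes a co-stimulatory ligand for T cells, was 2.57, 5.75 and 2.44 FPKM in controls, 61.2, 5.17 and 62.0 after LPS, and 44.8, 29.0 and 42.9 after LPS+MIC-1. Like Nos2, it was higher in control library 2 than in the other controls and lower in LPS+MIC-1 library 2 than in the other LPS+MIC-1 libraries. This likeness follows from the choice of Cd80 by its closeness to Nos2 in the same libraries. Among the members Odc1 was nearest to Nos2 at rank 182, followed by Ass1 at 320, Gch1 at 361, Slc7a2 at 534, Asl at 789, Arg2 at 1202 and Slc7a1 at 6105.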

How the data were processed

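RNA-seq reads were processed by the authors with Kallisto 0.45.0 against RefSeq transcripts of mm9, and gene-level FPKM were written with DESeq2 1.20.0, per the labels and the study's methods. The deposited FPKM tables, 1 for macrophages and 1 for liver, were normalized separately and were analysed separately. The deposited comparison tables hold the authors' fold changes and P-values and were not used. The study used 2 of the 3 macrophage LPS libraries, whereas all 3 were kept here. Columns carry no replicate number, so libraries are numbered in column order.

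FPKM were tested as log2(FPKM + 0.5) with limma 3.58.1 in R 4.3.3 (trend, 3 groups in a single fit, mean FPKM above 1), with Benjamini-Hochberg adjustment over all tested genes of a table. The fit was tested on simulated data. Python 3.11.15 and scipy 1.17.1 were used for the exact permutation tests. Depth was estimated from the FPKM step worth 1 read, taking the longest annotated transcript as the gene length, so reads are approximate. Alternatives were other pseudocounts, filters, scalings and fits, and leaving out each library. The members and gene lists were chosen with earlier results of these data known. The named genes were all 9 members, the list genes called, and the 5 genes nearest to Nos2. Of the genes called in the lists, those with the most direct role are given with values. A gene of the lists is not reported here by name.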

Additional observations from a re-analysis of the deposited data

Results flagged for a closer look

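Ass1 was on opposite sides of the controls in the 2 sample types in every library. For LPS against control the Log2FC was 1.04 in macrophages and -1.69 in liver, and for LPS+MIC-1 against control it was 0.85 in macrophages and -1.27 in liver. The difference between macrophages and liver was not tested, because the tables were normalized separately. Of the 4 values, the liver value for LPS against control passed its threshold. Without LPS library 2 the macrophage value for LPS against control was 1.44 and passed.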

How the results depend on the processing

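No paired analysis was possible because the columns carry no replicate numbers. Among the members called, leaving out each library in turn gave 0 to 7 for LPS against control, 0 to 2 for LPS+MIC-1 against LPS and 0 to 5 for LPS+MIC-1 against control in macrophages, with each upper end reached without LPS library 2, and 1 to 3, 0 and 1 to 2 in liver. The share of all tested genes called ran over the same fits from 0.0% to 34.2%, 1.1% to 23.3% and 1.42% to 15.7% in macrophages, and from 12.1% to 34.6%, 0.0% to 0.345% and 17.2% to 30.7% in liver. Rescaled to the same sum, 2 members (Arg2 and Gch1) and 3 members were called in macrophages for LPS+MIC-1 against LPS and against control (3.46% and 3.81% of all tested genes). In liver 1 was called for LPS+MIC-1 against control, Ass1 lower, with Arg1 and Odc1 lost (30.7%). In the 8 macrophage libraries also rescaled, an alternative chosen after seeing the data, the counts were 4, 1 and 5 (51.2%, 39.1% and 17.4%). In macrophages, LPS+MIC-1 against control, a pseudocount of 1 gave 2 members, only both groups in the fit gave 5, and averaging the closest libraries gave 0. The same averaging gave 0 in liver for LPS and for LPS+MIC-1 against control.

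The members below changed the sign of their Log2FC under an alternative, and the cause was not tested. For LPS+MIC-1 against LPS in macrophages, rescaling to the same sum gave 0.12 for Asl and 0.30 for Ass1, and in the 8 libraries 0.20 for Ass1 and -0.039 for Nos2. Leaving out 1 library gave -0.59 to 0.028 for Ass1, -0.84 to 1.15 for Nos2, -0.14 to 1.45 for Odc1 and -1.88 to 0.15 for Slc7a2. Against control, in LPS+MIC-1, Slc7a1 was 0.30 with the closest libraries averaged and -0.72 to 0.25 with 1 library left out. In liver Slc7a2 was -0.27, -0.17 and -0.43 after rescaling in the 3 comparisons (LPS against control, LPS+MIC-1 against LPS, LPS+MIC-1 against control), -0.11 and -0.046 with the closest libraries averaged in the comparisons with control, and -0.084 to 0.44, -0.22 to 0.57 and -0.017 to 0.67 with 1 library left out. In liver and for LPS+MIC-1 against LPS, Asl was -0.049 after rescaling, Odc1 was 0.086 after averaging and -0.65 to 0.084 with 1 library left out, and Arg1 was -0.39 to 0.018. Gch1 in liver was -0.29 to 0.22 for LPS+MIC-1 against control.

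The difference in the arginase share of Arg1, in percentage points and with 1 library left out, was -8.12 to 0.699 for LPS+MIC-1 against LPS in macrophages, and in liver -0.0122 to 0.0163 for LPS against control, -0.00764 to 0.00332 for LPS+MIC-1 against LPS and -0.0156 to 0.0129 for LPS+MIC-1 against control. The difference in the Nos2 to Arg1 log2 ratio for LPS+MIC-1 against LPS was -2.01 to 0.028 in macrophages and -0.067 to 0.34 in liver. In the 3 libraries of a group, and at 4.94 M fragments in the shallowest liver, genes listed at 0 limit what can be said of Nos2, Arg2 and Slc7a1 in liver.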
